A study of Mus musculus with 6 samples.

Results

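The kallikreins are a family of secreted serine proteases, and Spink5 encodes the inhibitor LEKTI, which binds several of them. The group described here was chosen by gene symbol as 9 kallikrein genes (Klk5, Klk6, Klk7, Klk8, Klk9, Klk10, Klk11, Klk13 and Klk14) and Spink5. All 10 symbols were found among the 19618 genes of the count table, and 9 of them passed the filter on low counts and were tested. Klk14 did not pass it.

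In the outer epidermis, corneocytes are held together by corneodesmosomes, and they are shed when proteases cut the proteins of these junctions. Granular keratinocytes secrete kallikreins as inactive precursors that other proteases, kallikreins among them, activate by cleavage. LEKTI is released by the same cells and holds the active enzymes in check; its loss in humans causes Netherton syndrome, a disorder of a leaky, peeling epidermis.

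RNA sequencing compared keratinocytes of the tail epidermis from mice aged 4 months, with 3 libraries in each of 2 groups, and asks how their expression differs when epidermal Gpr161 is deleted. The knockout group was K14cre+ and homozygous for floxed Gpr161 (Gpr161Flox). K14cre expresses Cre recombinase from a keratin 14 promoter, active in basal keratinocytes and thus inherited by their progeny, so other cell types in the preparation would keep the gene. The labels list no K14cre for the controls, of which 1 was homozygous and 2 were heterozygous for floxed Gpr161. Column names give only the group, so libraries are named by their tags. The tags DE679, DE685 and DE688 mark knockouts, and DE680, DE684 and DE689 mark controls. The homozygous control was not singled out. The labels do not say that each sample came from a separate mouse, so p-values measure the spread between these samples only.

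Libraries held 17157864 to 25344399 estimated counts, the fewest in DE685. Gpr161 itself had 25.9 to 33.6 CPM (counts scaled to the size of the library) in the knockout and 30.2 to 32.2 in the control, so whole-gene counts did not check the labels, while Gli1, a target of the Hedgehog pathway that Gpr161 restrains, had 66.7 to 74.5 against 8.25 to 9.96 CPM. Keratinocyte markers were high in all libraries (all 8 tested, with a summed level of 43383 to 61640 CPM). The 5 markers of the infundibulum and junctional zone of the hair follicle summed to 4108 to 4987 CPM in the knockout. In the control they summed to 2948 to 3851 CPM. Taken singly, 25.6% of all tested genes had groups that did not overlap. Of the 5, Plet1 and Defb6 were higher by the edgeR test described below, where 1.24% of all tested genes were called higher. Defb6 kept its call in only 1 of the 6 fits without a library (edgeR adjusted p 0.0680 to 0.157 in the other 5). The summed fibroblast markers were 129 to 142 against 37.4 to 79.1 CPM, a separation that lay in Dcn (112 to 123 against 20.8 to 40.6 CPM); Col1a1 and Col1a2 were highest in a control library, DE684. Summed immune, melanocyte and endothelial markers overlapped between groups, and none of these markers was called. The estimates were positive for all 6 tested immune and all 5 melanocyte markers, and negative for all 3 endothelial ones. Of all tested genes, 50.7% had a negative estimate. In bulk samples, fewer cells of a type and less RNA per cell cannot be told apart. The part of these cell types in the results below was not tested.

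The 9 kallikrein genes lie in 1 cluster on chromosome 7 (GRCm38), from 43690418 to 43851181, all on the plus strand. Their order from the low to the high coordinate is Klk14, Klk13, Klk11, Klk10, Klk9, Klk8, Klk7, Klk6 and Klk5, with Klk12, which was not in the group, between Klk13 and Klk11. The gaps between listed neighbours ranged from 819 bases (Klk9 to Klk8) to 47069 bases (Klk13 to Klk11). The longest identical run shared by transcripts of any pair of the 10 genes was 20 bases, over 45 pairs and 22 GENCODE transcripts. A non-coding transcript on the minus strand, 2310002F09Rik (43695209 to 43797958), has exons that overlap exons of Klk8 and Klk14. These were also the only 2 of the 10 genes whose estimated counts were more than 0.01 from a whole number in some library. Whether counting used the strand is not given in the sources used here, so counts of Klk8 and Klk14 are uncertain to that extent.

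The stretches upstream of 3 cluster genes are shown. The genes were picked after their values were seen, and none passed the edgeR test of genotype described below. They are Klk7, the most abundant of the kallikreins, Klk8, with the most negative log2 fold change, and Klk10, with the most positive. The stretches are RefSeq promoter sequence of GRCm38.p6, plus strand, 5′ to 3′, ending where the GENCODE gene begins. Capitals mark CACCC, the core bound by Krüppel-like factors such as Klf4, on either strand (GGGTG on the minus strand).

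Klk7, chr7:43811044-43811293: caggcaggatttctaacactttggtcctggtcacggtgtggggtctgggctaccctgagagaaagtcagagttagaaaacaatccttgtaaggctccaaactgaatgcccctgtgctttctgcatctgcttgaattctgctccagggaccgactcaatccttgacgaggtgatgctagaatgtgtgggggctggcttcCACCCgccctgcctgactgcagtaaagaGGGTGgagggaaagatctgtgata

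Klk8, chr7:43797327-43797576: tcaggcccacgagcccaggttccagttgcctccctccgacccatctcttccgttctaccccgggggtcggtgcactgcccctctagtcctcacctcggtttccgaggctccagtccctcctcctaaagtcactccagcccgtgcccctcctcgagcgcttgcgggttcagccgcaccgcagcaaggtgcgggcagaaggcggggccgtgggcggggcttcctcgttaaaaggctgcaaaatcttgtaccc

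Klk10, chr7:43780804-43781034: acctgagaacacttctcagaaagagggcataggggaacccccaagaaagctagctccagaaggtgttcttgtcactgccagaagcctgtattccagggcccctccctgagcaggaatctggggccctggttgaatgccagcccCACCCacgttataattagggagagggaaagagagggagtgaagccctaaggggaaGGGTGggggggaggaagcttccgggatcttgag

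The core stood 52 and 24 bases before the gene start in Klk7 and 88 and 33 bases before it in Klk10, and did not appear in the Klk8 stretch. In the full RefSeq windows, which hold 250 bases before the start and 50 after it, 8 of the 9 kallikreins held CACCC, as did 57.7% of the 32544 different promoter windows in the table. An E box (CANNTG) was present in 7 of 9, against 72.3% of all windows. Klk6 and Klk11 had 2 windows each and were counted if either held the letters, whereas the shares are per window. The letters of a TATA box (TATAAA), an AP-1 site (TGANTCA) and a Grainyhead site (AACNNGTT) were in none of the 9 on either strand, where 13.6%, 7.79% and 4.19% of all windows held them. A GLI site, TGGGTGGTC, was likewise in none of the 9, and in 0.246% of all windows. No overlap between motifs was removed. These matches describe letters only.

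Klk7 and Spink5 were the most abundant of the 10 transcripts. Per kilobase of exon, which allows levels of different genes to be set side by side, Klk7 (stratum corneum chymotryptic enzyme) had 152 ± 27.1 CPM per kilobase (SD over 6 libraries), above 98.4% of the tested genes. Spink5 followed with 79.1 ± 9.97 CPM per kilobase and Klk5 (stratum corneum tryptic enzyme) with 46.8 ± 11.5. The ranges of Klk7 and Spink5 did not overlap, whereas each next pair from Spink5 through Klk5, Klk10 and Klk8 to Klk11 overlapped. Klk10 had 39.3 ± 13.3, Klk8 24.5 ± 9.64 and Klk11 20.3 ± 5.20 CPM per kilobase. All libraries then stood lower for Klk6 (5.96 ± 1.82) and Klk9 (5.88 ± 1.07), which overlapped each other. Klk13 (2.06 ± 0.726 CPM per kilobase) was below Klk9 in every library, but its highest library (3.34) passed the lowest of Klk6 (3.15). Klk14 came last, at 0.109 ± 0.139 CPM per kilobase. The order of all 10 genes was the same when the longest transcript was used in place of the merged exons.

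**Figure D1:**
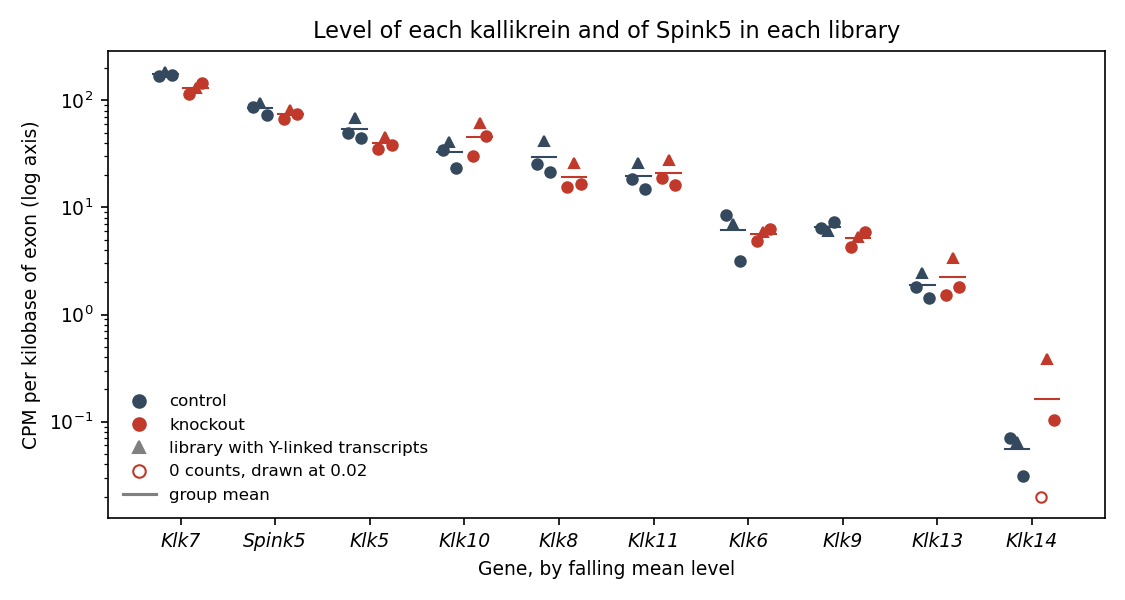
Level of each kallikrein and of Spink5 in CPM per kilobase of exon (log axis), by gene. Points are libraries, bars are group means, triangles are the libraries with Y-linked transcripts, and the open circle is a library with 0 counts. Klk7 sits at 113 to 184 in all 6 libraries, while Klk14 lies below 0.4 in each.

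None of the 9 genes tested passed an adjusted p of 0.05 for knockout against control (edgeR quasi-likelihood test, Benjamini-Hochberg adjustment over 15422 genes), where 1.6% of all tested genes did, 1.24% higher and 0.357% lower. Their adjusted p-values ran from 0.0773 for Klk7 to 0.911 for Klk11. At an unadjusted p under 0.05 there were 2 of 9, Klk5 and Klk7, both lower, against 19.0% of all genes, or 9.1% for lower ones. The log2 fold change was negative for 6 (Klk5, Klk6, Klk7, Klk8, Klk9 and Spink5), against 50.7% of all genes, and positive for 3 (Klk10, Klk11 and Klk13). Their median was −0.20, against −0.0036 for all tested genes. In 2 of the 9, Klk7 and Klk9, every knockout library lay below every control library, as in 12.8% of all genes. None of the 9 had all knockout libraries above, and groups that do not overlap in either direction made up 25.6% of all genes.

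Klk7, the chymotrypsin-like enzyme of the stratum corneum, came closest to the threshold. It had 215, 245 and 275 CPM in the knockout libraries DE679, DE685 and DE688, and 319, 349 and 324 CPM in the control libraries DE680, DE684 and DE689. All knockout libraries were below all control libraries, with means of 245 ± 30.2 and 330 ± 15.9 CPM (SD, n = 3 each). This was a difference of −0.43 in log2 (SE 0.09; adjusted p 0.0773 by edgeR), or −25.8% with a 95% interval from −36.2% to −13.7%. Of the alternatives tried, the DESeq2 Wald test alone called it (adjusted p 0.000948), where DESeq2 called 5.89% of genes, 2.07% lower; without DE679 the edgeR adjusted p was 0.204.

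Klk5, the trypsin-like enzyme that can activate the Klk7 precursor, had 47.2, 60.3 and 51.1 CPM in the knockout (DE679, DE685, DE688). In the control it had 65.5, 90.9 and 60.1 CPM (DE680, DE684, DE689). The groups met narrowly, since knockout DE685 stood just above control DE689, and DE684 was the highest of the 6. Klk5 had a log2 fold change of −0.45 (SE 0.16, 95% interval −0.82 to −0.07, edgeR adjusted p 0.198). With a sex covariate, read from Xist and Y-linked transcripts, Klk5 passed (−0.43, edgeR adjusted p 0.0365); without DE684 its change was −0.25.

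Klk8, also called neuropsin and a trypsin-like member, had the most negative log2 fold change of the group. Its levels were 23.7, 39.9 and 25.5 CPM in DE679, DE685 and DE688 and 39.2, 64.7 and 33.2 CPM in DE680, DE684 and DE689. The groups overlapped through knockout DE685, and the highest library of each group was the one with Y-linked transcripts. Its log2 fold change was −0.63 (SE 0.28, 95% interval −1.28 to 0.03, edgeR adjusted p 0.278). Klk8 passed with the sex covariate (−0.60, edgeR adjusted p 0.0185), where 2.65% of genes were called, 0.713% as lower. In that fit the sex term of Klk8 also passed, by 0.77 in log2 in favour of the libraries with Y-linked transcripts (edgeR adjusted p 0.0245), as did 0.46% of genes in either direction and 0.182% in this one. Krt1, a suprabasal keratin, was also highest in DE684 and DE685 (4303 and 4159 CPM, against 1563 to 2777 CPM in the others). Krt10, another suprabasal keratin, was highest in DE684, but DE685 (17304 CPM) lay below control DE680 (17491 CPM). The part of these keratins in the result was not tested. Leaving out DE684 moved the change of Klk8 to −0.29.

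Klk9, the immediate neighbour of Klk8, was scarce. It had 6.28, 7.74 and 8.75 CPM in DE679, DE685 and DE688, and 9.54, 8.82 and 10.9 CPM in DE680, DE684 and DE689. The groups did not overlap, but knockout DE688 and control DE684 lay close together. Its log2 fold change was −0.36 (SE 0.16, 95% interval −0.74 to 0.01, edgeR adjusted p 0.273), and −0.24 without DE679.

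Klk10 stood on the other side. It had 41.3, 84.0 and 63.3 CPM in DE679, DE685 and DE688, and 47.0, 55.6 and 32.4 CPM in DE680, DE684 and DE689. The 2 highest of the 6 libraries were knockout and the lowest was control, but DE679 lay within the control range. Klk10 had a log2 fold change of 0.48 (SE 0.27, 95% interval −0.15 to 1.11, edgeR adjusted p 0.374), and 0.22 without DE685.

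Klk11 and Klk13, both trypsin-like, differed by less than the spread between libraries. Klk11 ranged from 23.9 to 40.3 CPM in the knockout and from 21.9 to 38.3 in the control, with a log2 fold change of 0.07 (edgeR adjusted p 0.911). Klk13 ranged from 3.48 to 7.68 and from 3.25 to 5.62 CPM, with a log2 fold change of 0.23 (edgeR adjusted p 0.750). Without DE685, their highest library, both changes were negative (−0.18 and −0.17), and that of Klk11 was also negative without DE689 (−0.10). Klk6, a trypsin-like member also called neurosin, had 7.42 to 9.49 CPM in the knockout and spread more widely in the control, from 4.76 in DE689 to 12.8 in DE680. Its log2 fold change was −0.12 (edgeR adjusted p 0.877), and 0.17 without DE680.

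Klk14, a trypsin-like enzyme known as an activator of other kallikreins, was near the limit of detection. It had 0, 8.44 and 3.41 estimated counts in DE679, DE685 and DE688, and 2, 1.89 and 1 in DE680, DE684 and DE689. A limit of 3 counts, which covers counting error only, was passed in DE685 and DE688 alone. A difference was not detectable at this depth, and no fold is given.

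Spink5 (chromosome 18, 43963235 to 44022501, plus strand), the inhibitor, had 318, 385 and 356 CPM in the knockout (DE679, DE685, DE688) and 412, 451 and 350 CPM in the control (DE680, DE684, DE689). Control DE689 lay inside the knockout range. Its log2 fold change was −0.20 (SE 0.11, 95% interval −0.45 to 0.05, edgeR adjusted p 0.363), and −0.11 without DE684 or −0.12 without DE679.

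**Figure D2:**
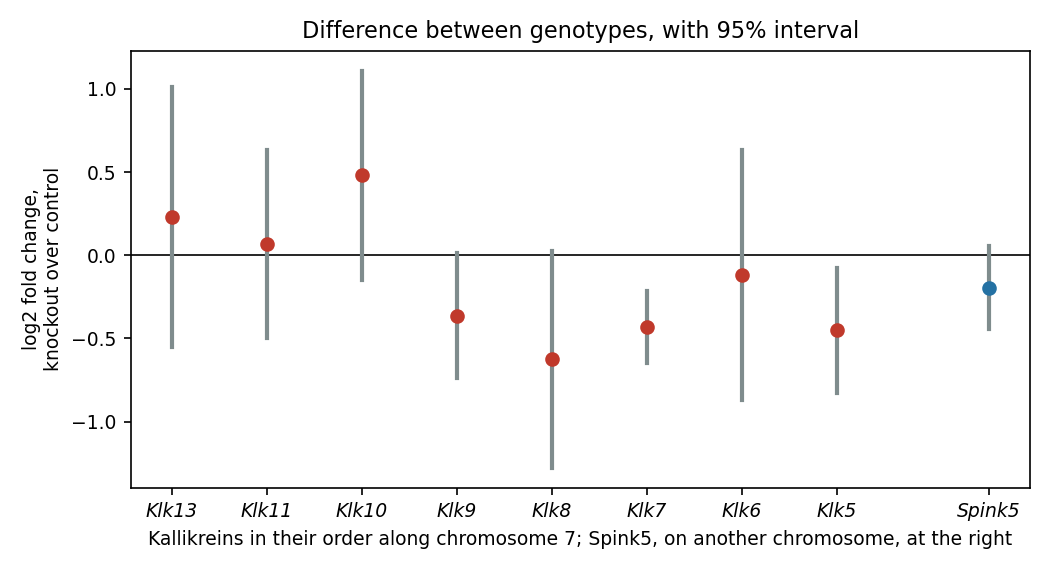
log2 fold change of knockout over control (vertical axis) for the 8 kallikreins tested, in their order along the chromosome, and for Spink5. Points are edgeR estimates and bars are 95% intervals. Klk13, Klk11 and Klk10 lie above 0, the other genes below it, and the intervals of Klk7 and Klk5 alone do not reach 0.

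Among the 8 tested kallikreins of the group, the sign changed once along the chromosome. Klk13, Klk11 and Klk10 had positive estimates and Klk9, Klk8, Klk7, Klk6 and Klk5 negative ones, although those of Klk11, Klk13 and Klk6 turned in the alternatives named above. Klk12, which lies between Klk13 and Klk11 and is no member, had a negative estimate (−0.08, SE 0.42, edgeR adjusted p 0.942), so with it included the sign changed 3 times. The change among members lay in the 6480 bases between Klk10 and Klk9. Within each library, the log2 ratio of Klk10 to Klk9 was 2.72, 3.44 and 2.86 in DE679, DE685 and DE688, and 2.30, 2.66 and 1.57 in DE680, DE684 and DE689. The ratio was higher in every knockout library than in any control library. The log2 ratio of Klk10 to Klk7 was −2.38 to −1.54 in the knockout and −3.32 to −2.65 in the control. These pairs were picked after their values were seen, so the ratios are a description and were not tested.

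The balance of protease to inhibitor transcript did not separate the groups when all 9 kallikreins were summed. The log2 ratio of the 9 summed kallikreins to Spink5 was 0.23, 0.36 and 0.38 in DE679, DE685 and DE688. It was 0.35, 0.47 and 0.49 in DE680, DE684 and DE689, so the groups overlapped, with means of 0.32 ± 0.08 and 0.43 ± 0.07 (SD, n = 3 each). For Klk5 alone over Spink5 the knockout libraries (−2.80 to −2.68) lay below the control libraries (−2.65 to −2.31). For Klk7 over Spink5 the groups overlapped, at −0.65 to −0.37 and −0.37 to −0.11. CPM are not scaled by length here, so these ratios compare libraries and not the amounts of the genes. Such sums over chosen genes were not tested.

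**Figure D3:**
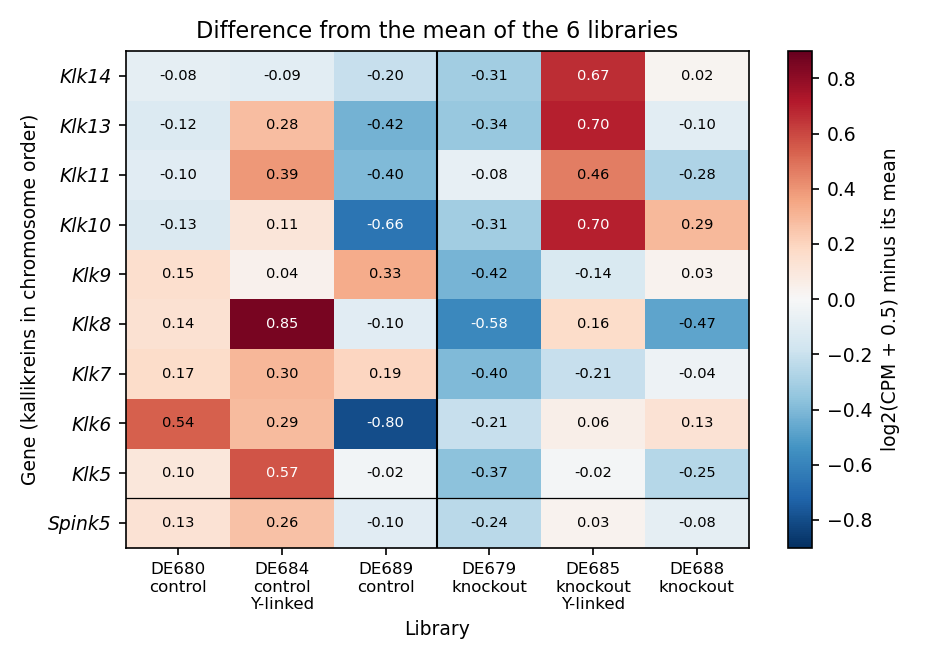
Each gene's log2(CPM + 0.5) in a library minus its mean over the 6 libraries, with kallikreins in chromosome order and Spink5 last. Red is above the mean and blue below it. Klk10, Klk11, Klk13 and Klk14 are highest in knockout DE685, and Klk5, Klk7, Klk8 and Spink5 in control DE684.

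The spread between libraries of a group was wide for most of these genes. The median SD within groups on the log2(CPM + 0.5) scale was 0.39 for the 9 tested genes, against 0.14 for all tested genes. Klk6 (0.52) exceeded 95.4% of tested genes in this spread, and Klk8 (0.45), Klk10 (0.46) and Klk13 (0.46) exceeded 93.5% to 93.7% of them. Klk7, at 0.14, and Spink5, at 0.16, were steadier. Klk5, Klk7, Klk8, Klk9 and Spink5 were lowest in DE679, and Klk6, Klk10, Klk11 and Klk13 in DE689. Klk14, near the limit of detection, had 0 counts in DE679. The share of all tested genes that were lowest in these libraries was not worked out.

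Profiles over the 6 libraries were compared by the root mean square difference of centred log2(CPM + 0.5). The comparison covered 9684 genes with a mean of at least 10 CPM, so Klk6, Klk9, Klk13 and Klk14 were left out. The nearest profiles were not those of the other kallikreins compared. Klk5 was closest to Csta1 (0.089), a cystatin that inhibits cysteine proteases, then to Mpp6 (0.091) and Fhl2 (0.092), with Spink5 at rank 60, Klk7 at 177 and Klk8 at 195. Klk7 was closest to Spire1 (0.068), Snhg3 (0.070) and Cnfn (0.075), the last encoding cornifelin of the cornified envelope; Spink5 ranked 792 and Klk5 1340. Spink5 was closest to Cycs (0.034), 1110008P14Rik (0.042) and Asns (0.050). Profiles that vary little lie near many genes by this measure.

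Among 24 other tested protease inhibitors of the skin, 1 passed the threshold, where 1.6% of all tested genes did. Serpina12 (chromosome 12, 104028769 to 104044443, minus strand) encodes vaspin, a serpin known to inhibit kallikrein 7, and fell in the knockout. It had 54.3, 52.6 and 65.7 CPM in DE679, DE685 and DE688, and 83.1, 105 and 110 CPM in DE680, DE684 and DE689. Every knockout library was below every control library. This was a difference of −0.78 in log2 (SE 0.13; adjusted p 0.0302 by edgeR), or −41.9% with a 95% interval from −52.5% to −29.0%. It passed without DE680 (edgeR adjusted p 0.0285) or DE688 (0.0491) but not without DE679 (0.140), DE684 (0.0759), DE685 (0.0879) or DE689 (0.0875). Over all tested genes, 19.0% had an unadjusted p under 0.05 in the edgeR test. In 12.8% of them every knockout library lay below every control library. The median log2 fold change of the 24 was −0.10, with 17 below 0, against 50.7% of all tested genes. Of the other 3 with an unadjusted p under 0.05 in the edgeR test, Csta1 (−0.60, edgeR adjusted p 0.0973) and Wfdc21, a protein with a whey acidic protein domain (−0.68, edgeR adjusted p 0.116), had all knockout libraries below all control libraries. The third, Cst6, the cystatin M/E inhibitor of cathepsins, overlapped between groups and had 1433 against 1096 mean CPM (log2 fold change 0.39, edgeR adjusted p 0.224), and Spint1 and Spint2, which inhibit matriptase, had log2 fold changes of −0.03 and 0.02.

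None of the 20 other tested proteases and activators passed, where 1.6% of all tested genes did. Of the 20, 4 had an unadjusted p under 0.05 in the edgeR test, against 19.0% of all tested genes. The median log2 fold change of the 20 was 0.0057, with 10 above 0 and 10 below. The 3 with the smallest p were Plat, the tissue plasminogen activator (0.75, edgeR adjusted p 0.125), Ctsb, the cysteine protease cathepsin B (0.21, edgeR adjusted p 0.129), and St14, the membrane protease matriptase, which can activate kallikrein precursors (0.19, edgeR adjusted p 0.202). In each of these 3 the knockout libraries lay above the control libraries. Groups did not overlap, in either direction, in 25.6% of all tested genes. The fourth, Tmprss11f, a membrane serine protease, went the other way, with a log2 fold change of −0.55 (edgeR adjusted p 0.218) and all knockout libraries below. Prss8, the prostasin gene, had a log2 fold change of 0.12 (edgeR adjusted p 0.562). Klk12, within the cluster, had 0.289 to 0.658 CPM over all libraries.

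Of 21 tested genes on a list of corneodesmosome and stratum corneum substrates, Cldn1 alone passed, where 1.6% of all tested genes did. Whether kallikreins cut the products of all these genes was not examined here. Cldn1 (chromosome 16, 26356642 to 26371841, minus strand), a claudin of tight junctions, was higher in the knockout: 380 ± 18.7 against 287 ± 19.9 CPM (SD, n = 3 each), or 0.40 more in log2 (SE 0.07; adjusted p 0.0412 by edgeR). Leaving out any 1 of the 6 libraries lost the call (edgeR adjusted p 0.0636 to 0.171). Dsc1 (desmocollin 1, a corneodesmosomal cadherin) had a log2 fold change of −0.42 (edgeR adjusted p 0.070). Its groups did not overlap, as in 25.6% of all tested genes. Dsg1a and Cdsn, for desmoglein 1 and corneodesmosin, had −0.14 and 0.03 (edgeR adjusted p 0.491 and 0.915). F2rl1, the receptor PAR2 that kallikreins can cleave, had 0.21 (edgeR adjusted p 0.178).

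A list for the granular layer, where kallikreins and LEKTI are made, held 23 tested genes, among them suprabasal keratins such as Krt1 and Krt10. Some of its genes, such as Flg, Klf4 and Casp14, were also counted in other lists. Krt77 alone passed, where 1.6% of all tested genes did. Krt77 (chromosome 15, 101858731 to 101869705, minus strand), a suprabasal keratin, had 22.3, 43.8 and 45.4 CPM in the knockout (DE679, DE685, DE688) and 9.89, 11.7 and 15.2 CPM in the control (DE680, DE684, DE689). It was higher in the knockout by 1.60 in log2 (SE 0.28; adjusted p 0.0395 by edgeR), but did not pass with limma-voom or in 5 of 6 fits that left out 1 library. The median log2 fold change of the list was −0.26, with 19 below 0 and 4 above, where 50.7% of all tested genes were below 0. In 10 of the 23 all knockout libraries lay below all control libraries, where 12.8% of tested genes did so. Calm4 (−0.47), Lce1c (−0.45), Lor (−0.29) and Krtdap (−0.28) were among these 10. Over the 9 tested members the estimates ran from −0.63 for Klk8 to 0.48 for Klk10, with 6 below 0 and 3 above. How far the values of the kallikreins follow those of the layer was not tested.

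**Figure D4:**
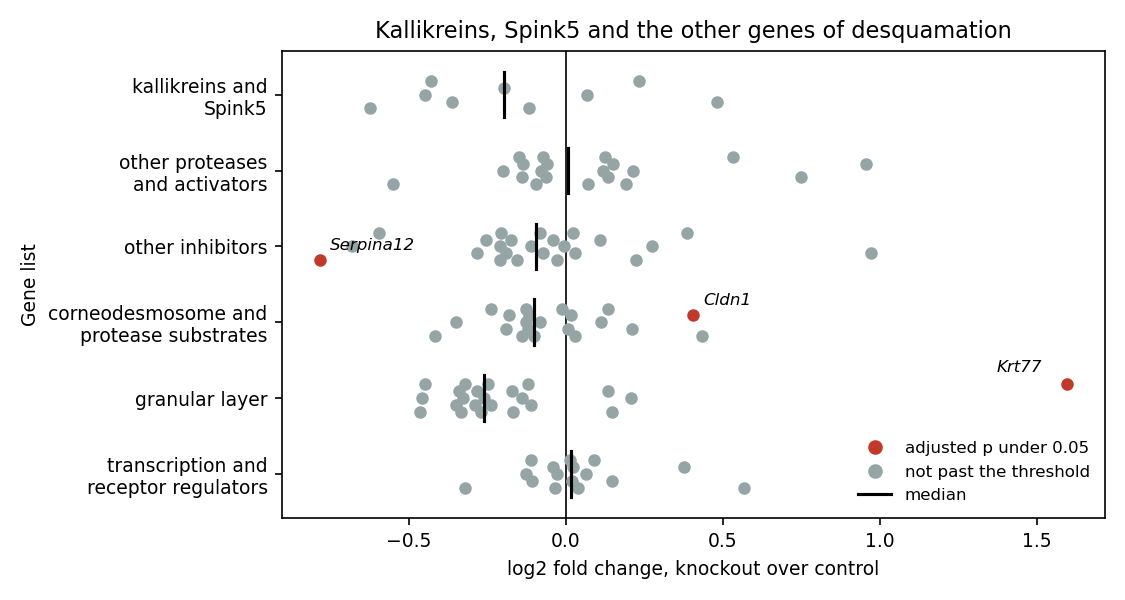
log2 fold change of knockout over control for the 9 tested genes and for the other genes of each desquamation list. Points are genes, black bars are medians, and red marks an adjusted p under 0.05 in the edgeR test. Serpina12 at −0.78, Cldn1 at 0.40 and Krt77 at 1.60 are the points in red, and none is a kallikrein.

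None of 16 tested regulators named for kallikrein or Spink5 expression passed, where 1.6% of all tested genes did. Of the 16, 2 had an unadjusted p under 0.05 in the edgeR test, against 19.0% of all tested genes. Vdr, the vitamin D receptor, had 321 ± 30.7 against 247 ± 24.0 CPM (SD, n = 3 each; log2 fold change 0.37, edgeR adjusted p 0.105). Klf4, a transcription factor of epidermal differentiation, had 823 ± 82.4 against 1029 ± 65.1 CPM (−0.32, edgeR adjusted p 0.119). The groups of Vdr and of Klf4 did not overlap, as in 25.6% of all tested genes. Rxra, the partner of Vdr, had 0.15 (edgeR adjusted p 0.332).

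Within the cluster or up to 200 kb from it, 5 genes outside the group were tested and none passed. At an unadjusted p under 0.05 in the edgeR test there was 1. Over all tested genes these shares were 1.6% and 19.0%. Klk12 and 2310002F09Rik lie inside the cluster, and Klk12 is also counted among the proteases. The 1 gene, Zfp658, had a log2 fold change of 0.65 (edgeR adjusted p 0.251), and Zfp719 had 0.21 (0.634). The antisense 2310002F09Rik had 1.39 to 2.10 CPM in the knockout and 1.34 to 2.60 CPM in the control, and its estimate was −0.31 in log2 (SE 0.33; adjusted p 0.641 by edgeR).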

How the data were processed

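Members and gene lists were chosen with earlier results of these data known. The study sequenced stranded libraries of polyadenylated RNA from tail keratinocytes. Per the submitters' processing notes, bcl2fastq 2.20, cutadapt 1.18, STAR 2.7.0f and Partek were used with mm10; their roles, the annotation and the strand setting are not given in the sources used here. The authors deposited estimated counts per gene and a normalized signal, in which, from the values, each entry equals the estimated count times a constant of its library plus 0.001.

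Column names give the group only, so libraries were grouped but not numbered. No pair of libraries within a group matched within counting error: chi-square over its degrees of freedom was 11.3 to 36.4. Estimated counts were rounded, genes with low counts removed (filterByExpr, edgeR 4.0.16), libraries scaled by TMM (trimmed mean of M values; factors 0.975 to 1.03) and genotype fitted with glmQLFit and glmQLFTest over all 6 libraries. P-values were adjusted by Benjamini-Hochberg over 15422 genes. The F statistic gave SEs and 95% intervals of log2 fold changes. Levels are CPM with TMM scaling, or CPM per kilobase of merged GENCODE M21 exons, whose gene coordinates equal those of the files for all 10 genes. With 3 against 3, an exact permutation test cannot go below 0.1. At library sizes after TMM scaling of 17312214 (DE685) to 25709315 (DE688), 3 counts are 0.117 to 0.173 CPM.

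Genes named were the 10 members, Gpr161, Gli1, the genes of each list past the threshold (up to 6) or else its 3 with the smallest p, and the 3 nearest profiles of Klk5, Klk7 and Spink5; other genes named, such as Cst6, Dsc1 and the granular layer examples, were picked after their values were seen. Alternatives were a minimum mean of 1 CPM, no filter, RLE or upper-quartile factors, DESeq2 1.42.0, and limma-voom and limma-trend (limma 3.58.1; log2 of the authors' normalized signal plus 1), a sex covariate, and each library left out. Protein sequences were not used here.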

Additional observations from a re-analysis of the deposited data

How the results depend on the processing

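No member passed with all 6 libraries under limma-voom or limma-trend, without the filter, at 1 CPM or more, or under RLE or upper-quartile factors, nor in any fit that left out 1 library (0 to 0). The number was 1 with DESeq2 (Klk7) and 2 with the sex covariate (Klk5 and Klk8); the cause was not tested. Over all genes, 247 passed, against 872 with DESeq2, 409 with the sex covariate, and 69 to 121 when 1 library was left out, where fewer libraries enter each fit.

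Of 126 changes of members under alternatives, 118 kept their direction and side of the threshold, 3 newly passed and 5 changed sign. The reversals were Klk6 with limma-voom (0.015) and without DE680 (0.17), Klk11 without DE685 (−0.18) and without DE689 (−0.099), and Klk13 without DE685 (−0.17). With a library left out, Klk6 spanned −0.44 to 0.17, Klk11 −0.18 to 0.31 and Klk13 −0.17 to 0.46. The kallikrein to Spink5 log2 difference was −0.11, and −0.16 to −0.065 with a library left out. No paired analysis was possible because the columns carry no replicate numbers. Depth limits Klk14, Klk12 and the other genes near 3 counts.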

Other observations

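The 2 libraries with Y-linked transcripts, DE684 in the control and DE685 in the knockout, were the highest of their own group for 6 of the 9 tested genes: Klk5, Klk8, Klk10, Klk11, Klk13 and Spink5. Of all 15422 tested genes, 13.9% were highest in both. In an edgeR quasi-likelihood fit with genotype and sex, whose sex term was read after the data were seen, Klk8 was higher in these libraries by 0.77 on the log2 scale (SE 0.09, adjusted p 0.0245). Of all tested genes, 0.46% passed for the sex term. Klk11 (0.65, edgeR adjusted p 0.0593), Klk5 (0.42, 0.0912), Klk13 (0.81, 0.188) and Klk10 (0.59, 0.319) did not pass, while Klk7 and Klk9 had values of 0.06 and −0.09 (edgeR adjusted p 0.908 and 0.926). With 1 such library per group, sex and whatever else sets these 2 libraries apart cannot be told apart. Both libraries also stood apart in Awat2 and Scd3, enzymes of sebaceous lipid synthesis: Awat2 had 5.13 and 5.37 CPM in DE684 and DE685 against 22.4 to 31.0 CPM in the others, and Scd3 had 28.6 and 34.3 against 1.57 to 10.8 CPM. The 7 sebaceous markers together summed to 7002 and 7664 CPM in these libraries and 6728 to 8064 CPM in the others. The 8 keratinocyte markers summed highest within each group in these libraries (61640 and 53915 CPM), and the 7 immune markers lowest (20.4 and 40.8 CPM). Of the keratinocyte markers, only the suprabasal keratins Krt1 and Krt10 were themselves highest within each group in these libraries. Dsp was highest within its group in DE684 only. Krt5, Krt14, Cdh1, Trp63 and Epcam were highest within their group in neither. Cdh1, Trp63 and Epcam were lowest of the 6 libraries in DE684 (624, 523 and 77.8 CPM). DE684 was also the highest of the 6 for Col1a1 (12.6 CPM) and the lowest for Cd74, an antigen-presentation gene used here as an immune marker, and the part of these cells in the kallikrein values was not tested.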
